A study of Rattus norvegicus with 12 samples.

Results

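Foxp1 is examined here beside 8 transcription factors that set the identity of the liver cell, namely Foxa1, Foxa2, Foxa3, Hnf4a, Cebpa, Cebpb, Nr1h4 and Nr5a2, in livers of rats fed the edible brown seaweed wakame. The set was chosen by measured values of these data, since Foxp1 had been seen to lie higher on the diet with most wakame. Probe sets, the groups of short array probes aimed at 1 transcript, were taken where the platform annotation gives 1 of these 9 symbols alone. This found 21 of the 31042 probe sets that are not manufacturer's controls. Among them 13 varied, which here means a standard deviation (SD) above 0.01 log2 over the 12 arrays, out of 3240 such probe sets in all. The other 8 held practically 1 value on every array and count as unmeasured. The varying probe sets stood for 7 of the 9 genes, with 3 of 5 for Foxp1, 4 of 5 for Cebpa, 2 of 3 for Nr5a2, 1 of 3 for Hnf4a and 1 of 1 for Foxa2, Cebpb and Nr1h4. The single probe sets of Foxa1 and Foxa3 did not vary, so nothing can be said of these genes. Closest to the limit lay a pair of Nr5a2 probe sets, one inside with an SD of 0.078 and one outside with 0.0067.

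The rats were male Sprague Dawley animals, 9 weeks old per the labels. Their food for 28 days was the purified AIN-93G diet, alone (control) or with wakame powder at 0.1% or 1%. Arrays came from 4 rats of each diet, 1 per rat, numbered as in the labels. The 6 animals on a diet shared cages in groups of 3, and no label says which rat lived where, so effects of cage cannot be told apart from those of diet. The deposited values are taken as log2 signals and come with no background or detection call. Whole liver was sampled, and less RNA per cell cannot be told apart from fewer cells of a type.

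Hepatocytes keep their character through a small set of factors that bind each other's genes and share many targets. FOXA proteins are forkhead factors that open closed chromatin, HNF4A is a nuclear receptor needed for most hepatocyte-specific transcription, and C/EBPalpha and C/EBPbeta are leucine zipper factors of metabolic and of stress or acute phase genes. The nuclear receptors FXR, the product of Nr1h4, and LRH-1, the product of Nr5a2, govern bile acid and cholesterol handling. FOXP1 is a forkhead protein that acts mainly as a repressor. In mouse liver it has been described as a brake on FoxO1-driven gluconeogenic genes.

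Foxp1 and Nr5a2 were the 2 genes of the set whose signal lay higher on the 1% diet than in every control rat. On Foxp1's brightest varying probe set, 1390885_at, the log2 signal was 7.84, 7.66, 7.95 and 7.95 in control rats 1 to 4, 7.71, 7.50, 8.27 and 8.21 in rats on 0.1% wakame, and 8.61, 8.85, 8.41 and 8.88 in rats on 1% wakame. All 4 rats on 1% wakame lay above all 8 others, and rats 3 and 4 on 0.1% wakame lay above all controls while rats 1 and 2 lay among or below them. The difference was 0.83 ± 0.18 log2, or 1.78-fold, for 1% wakame minus control (SE from the limma fit described below, n = 4 per diet), 0.76 ± 0.18 for 1% minus 0.1% wakame and 0.07 ± 0.18 for 0.1% wakame minus control.

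The other varying probe sets of Foxp1 also lay highest on the 1% diet, with smaller differences. On 1373804_at the log2 signal was 7.25, 7.44, 7.73 and 7.63 in control, 7.29, 7.17, 7.90 and 7.55 on 0.1% wakame, and 8.18, 8.37, 7.86 and 8.46 on 1% wakame. The 1% diet lay above all controls, but rat 3 on 0.1% wakame exceeded rat 3 on 1% wakame. On 1379651_at the log2 signal was 6.90, 6.98, 7.22 and 6.78 in control, 6.89, 6.66, 7.13 and 7.07 on 0.1% wakame, and 7.36, 7.49, 7.26 and 7.54 on 1% wakame, with the 1% diet above all 8 others. The differences of 1% wakame minus control were 0.70 ± 0.18 and 0.44 ± 0.13 log2, and those of 0.1% wakame minus control were −0.04 ± 0.18 and −0.03 ± 0.13. Across the 12 rats the 3 probe sets ran together, with Pearson r from 0.92 to 0.95, and from 0.76 to 0.87 once the mean of each diet was removed. They measure 1 gene in the same RNA and are not separate evidence. The remaining probe sets of Foxp1, 1380544_at and 1394691_at, did not vary.

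Nr5a2, whose product LRH-1 drives bile acid synthesis and transport genes, gave a log2 signal on 1390965_at of 9.08, 8.87, 8.90 and 8.75 in control, 8.85, 8.97, 9.30 and 9.34 on 0.1% wakame, and 9.71, 9.40, 9.41 and 9.47 on 1% wakame. The 1% diet lay above all 8 others. On 0.1% wakame rats 3 and 4 lay above all controls, which for Foxp1 both did on its brightest varying probe set only. The difference was 0.60 ± 0.13 log2, or 1.51-fold, for 1% wakame minus control, 0.38 ± 0.13 for 1% minus 0.1% wakame and 0.21 ± 0.13 for 0.1% wakame minus control. The second varying probe set of Nr5a2, 1384835_at, did not show this. It averaged 7.80 ± 0.06 log2 in control, 7.85 ± 0.08 on 0.1% and 7.87 ± 0.09 on 1% wakame (SD, n = 4), a difference of 0.07 ± 0.07 for 1% wakame minus control with overlapping diets, and it followed the first probe set only loosely over the 12 rats (r = 0.33, and 0.09 with diet means removed). The size for Nr5a2 therefore depends on the probe set.

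**Figure D1:**
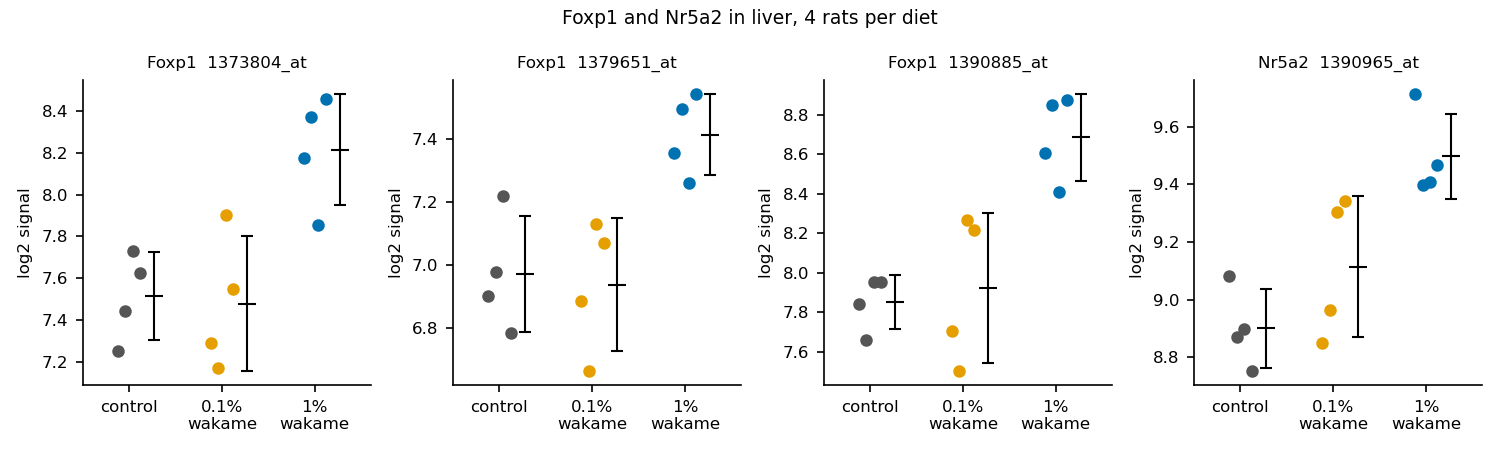
Log2 signal (vertical axes, which do not start at 0) of the 3 varying Foxp1 probe sets and of Nr5a2 probe set 1390965_at by diet; each point is 1 rat, and the bar beside the points is the mean ± SD of 4 rats. In every panel the 4 rats on 1% wakame lie above the 4 controls, and the 0.1% diet is spread over 2 higher and 2 lower rats.

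Foxp1 joined the set because it had already been seen to lie higher on the 1% diet, and Nr5a2 may have been chosen with the same comparison in view. Their differences are therefore given as a description without a p, as are those of all members in that comparison. In the limma fit over all 3240 varying probe sets, 2 of the 13 member probe sets, 1390885_at of Foxp1 and 1390965_at of Nr5a2, were among the 1.67% of probe sets called between 1% wakame and control at an adjusted p under 0.05. As these genes were, or may have been, chosen for that difference, the calls are no test of them. Without overlap between these diets were 4 of the 13, all higher on 1% wakame, beside 11.3% of all varying probe sets, and nothing is read from either count. The call on 1390885_at was lost without control rat 1, 2, 3 or 4, without rat 1, 2, 3 or 4 on 1% wakame and without rat 1 on 0.1% wakame, although the difference itself stayed between 0.77 and 0.93 log2. That on 1390965_at was lost in 10 of the 12 fits that left out an array and was kept without rat 1 or rat 4 on 0.1% wakame, with a difference between 0.52 and 0.66. Both calls were also lost with all 31042 probe sets in the fit and with the Gapdh measure of RNA integrity described below as a covariate, under which the differences were 0.90 ± 0.22 and 0.68 ± 0.15 log2.

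The sequences before the start sites of Foxp1 and Nr5a2 are shown because these genes lay higher together. RefSeq promoter windows of the rat assembly GRCr8 were available for 7 of the 9 genes, as 8 windows with a pair for Hnf4a, and the 250 bases before each start were searched on both strands. Each window stands for 1 annotated start, and other starts of the same gene were not used here. The Foxp1 window (chr4:133353281-133353530, minus strand) and the Nr5a2 window (chr13:50984939-50985188, minus strand) read, 5′ to 3′ on the gene's strand with searched letters in capitals:
Foxp1: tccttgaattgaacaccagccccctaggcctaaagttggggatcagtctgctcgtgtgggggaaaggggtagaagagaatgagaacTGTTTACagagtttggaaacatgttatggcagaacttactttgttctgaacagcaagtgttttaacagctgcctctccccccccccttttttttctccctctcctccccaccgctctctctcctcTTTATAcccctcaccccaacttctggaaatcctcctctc
Nr5a2: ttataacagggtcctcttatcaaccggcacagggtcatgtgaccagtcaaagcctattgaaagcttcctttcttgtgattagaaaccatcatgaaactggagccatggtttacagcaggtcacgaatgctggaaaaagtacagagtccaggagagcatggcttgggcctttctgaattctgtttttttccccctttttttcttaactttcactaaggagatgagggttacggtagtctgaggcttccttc
The Foxp1 window holds the forkhead letters TGTTTAC at 164 to 158 bases before the start, and 3.21% of 33469 windows of the same length hold them. It also holds TATAAA on the opposite strand, as do 12.9% of windows on either strand. The Nr5a2 window held none of the 15 strings searched.

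The other strings were TATTTAC for forkhead factors, ATTGATTT and ATTGATTG for HNF6, CAAGGTCA for LRH-1, TTGCNNAA and TTNCGCAA for C/EBP factors, CAAAGTCCA and CAAAGTTCA for HNF4A, a pair of longer strings for HNF1 factors, TTANGTAA for the PAR leucine zipper factors, NTAGGTCA for ROR and REV-ERB receptors and TTCNNNGAA for STAT5. The pairs for C/EBP and for HNF1 can match at the same bases. Apart from TATAAA, which was in the windows of Cebpa, Cebpb, Foxa2, Foxa3 and Foxp1, the search found 1 more match, ATTGATTT in the window of Foxa2. A match is letters in a window and not a shown binding site.

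The genes most like Foxp1 over the 12 rats were sought among 2583 varying probe sets with 1 symbol, by Pearson r with 1390885_at and as a description. The 6 closest genes were Phtf2 (r = 0.92), the membrane and actin linker Mtss1 (0.88), the Mediator subunit Med13l (0.88), the complement lectin protease Masp1 (0.88), the PAR leucine zipper factor Tef, which is under clock control (0.87), and Fkbp5, a co-chaperone induced by glucocorticoids (0.86). Med13l lay between 7.14 and 7.28 log2 in all 12 rats, so its likeness is one of pattern and not of size. With diet means removed, r was 0.80 for Phtf2, 0.72 for Mtss1, 0.68 for Med13l, 0.86 for Tef and 0.77 for Fkbp5. It was 0.53 for Masp1, so that for Masp1 more of the likeness lay in the difference between diets. Tef had a log2 signal of 6.63, 6.85, 6.90 and 7.03 in control, 6.98, 6.71, 7.35 and 7.64 on 0.1% wakame, and 7.55, 7.52, 7.24 and 7.64 on 1% wakame. On 0.1% wakame, rats 3 and 4 were above rats 1 and 2 for Tef as well. The 3 genes most opposite to Foxp1 were Socs2, whose product dampens the growth hormone receptor's signal (r = −0.88), the nuclear receptor gene Ppard (−0.86) and Uspl1 (−0.84). With diet means removed, r was −0.54 for Socs2, −0.58 for Ppard and −0.67 for Uspl1. All of these values share their arrays and the diet difference through which Foxp1 was picked.

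**Figure D2:**
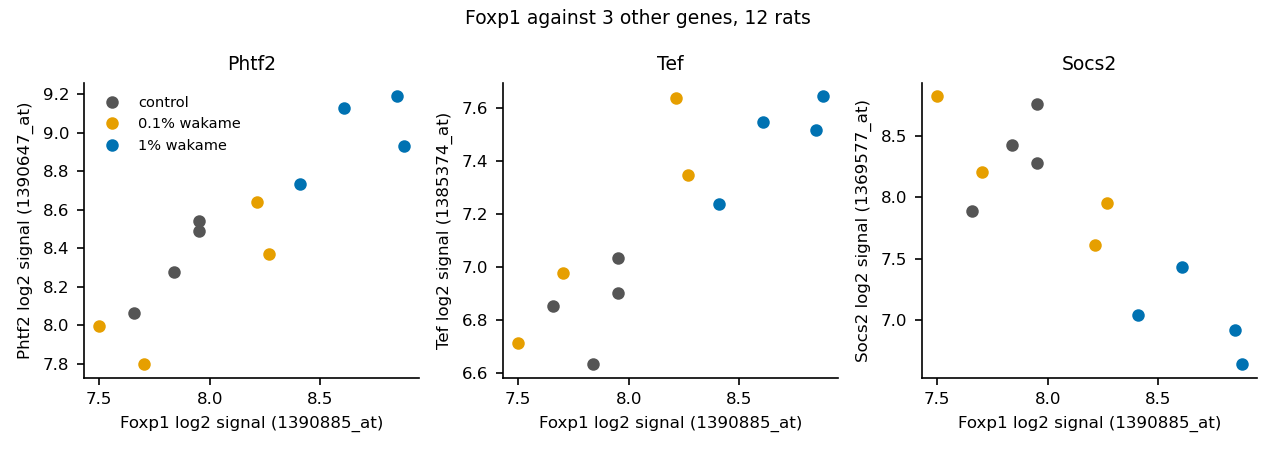
Log2 signal of Phtf2, Tef and Socs2 (vertical axes) against Foxp1 probe set 1390885_at (horizontal axes), 1 point per rat, coloured by diet. Phtf2 and Tef run upward with Foxp1 (r = 0.92 and 0.87 over 12 rats) and Socs2 runs downward (r = −0.88), with the rats on 1% wakame at the high Foxp1 end. With diet means removed, r was 0.80 for Phtf2, 0.86 for Tef and −0.54 for Socs2.

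Cebpa, the gene of the metabolic leucine zipper factor C/EBPalpha, varied widely between rats of the same diet. On 1384126_a_at the log2 signal was 8.23, 10.47, 9.90 and 10.18 in control, 8.84, 10.06, 7.76 and 8.60 on 0.1% wakame, and 8.43, 9.99, 8.49 and 7.98 on 1% wakame. Control rat 1 lay about as low as most wakame rats and rat 2 of each wakame diet lay as high as the upper controls, so the diets overlapped. The whole range was 2.71 log2, or 6.55-fold, and the SD within diets, 0.94, was exceeded by 3.36% of the varying probe sets, whose median was 0.21. The 4 varying probe sets ran together from rat to rat, with r from 0.92 to 0.99, although their ranges differed, at 2.68 and 2.71 log2 for 1383242_a_at and 1384126_a_at and 1.44 for both 1383243_at and 1384127_at. Per the platform annotation 1383242_a_at and 1383243_at share a source sequence, as do 1384126_a_at and 1384127_at. The fifth, 1369658_at, did not vary.

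For 1% wakame minus control, Cebpa was at −0.97 ± 0.62 log2 on 1384126_a_at, −0.93 ± 0.64 on 1383242_a_at, −0.49 ± 0.35 on 1384127_at and −0.29 ± 0.31 on 1383243_at. With each array left out in turn these ran from −1.46 to −0.71, −1.43 to −0.66, −0.74 to −0.37 and −0.48 to −0.17, with the lowest value of each without control rat 1. As differences of medians they were −1.58, −1.52, −0.84 and −0.53. With the Gapdh covariate these values were −1.69 ± 0.68, −1.67 ± 0.71, −0.85 ± 0.40 and −0.62 ± 0.35. For 0.1% wakame minus control they ran from −0.88 ± 0.62 to −0.15 ± 0.31 (limma adjusted p from 0.651 to 0.907), and for 1% minus 0.1% wakame from −0.15 ± 0.64 to −0.09 ± 0.35 (adjusted p from 0.970 to 0.993). No probe set passed in either of these comparisons.

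**Figure D3:**
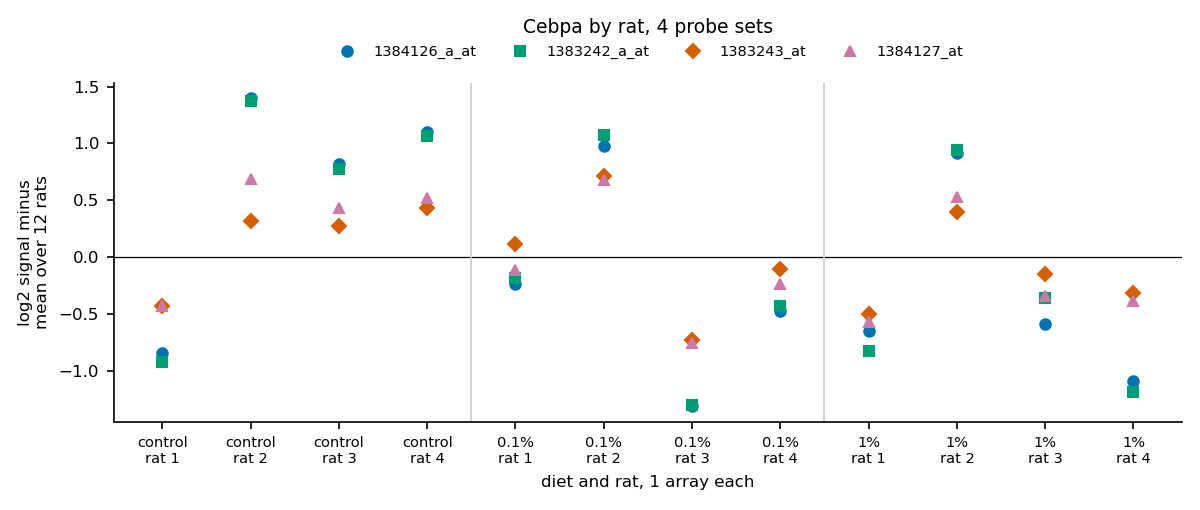
Log2 signal of the 4 varying Cebpa probe sets in each of the 12 rats, minus that probe set's mean over the 12 rats (vertical axis), with diets divided by grey lines. The probe sets largely share their high and low rats, and each diet has rats on both sides of 0.

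Cebpb, whose product C/EBPbeta is induced by stress and cytokines, was low and even on 1% wakame. Its log2 signal on 1387087_at was 10.42, 9.88, 10.51 and 10.44 in control, 11.18, 9.75, 9.63 and 10.82 on 0.1% wakame, and 9.88, 9.55, 9.49 and 9.67 on 1% wakame. Control rat 2 lay level with the highest rat on 1% wakame while the other controls lay well above, and the 0.1% diet was split into a high and a low pair of rats. The difference was −0.66 ± 0.32 log2 for 1% wakame minus control, and it ran from −0.81 to −0.60 with each array left out in turn. For 1% minus 0.1% wakame it was −0.69 ± 0.32 (limma adjusted p = 0.747) and for 0.1% wakame minus control 0.03 ± 0.32 (adjusted p = 0.991), and neither passed.

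Foxa2, the forkhead factor of bile acid and lipid handling in fasted liver, spread widely in every diet. Its log2 signal on 1368711_at was 10.05, 10.28, 9.72 and 9.16 in control, 8.41, 8.81, 9.93 and 8.66 on 0.1% wakame, and 10.67, 9.19, 8.71 and 8.71 on 1% wakame. The highest liver of all was rat 1 on 1% wakame, and 3 of 4 rats on 0.1% wakame lay below all controls. The differences were −0.85 ± 0.47 log2 for 0.1% wakame minus control (limma adjusted p = 0.559) and 0.37 ± 0.47 for 1% minus 0.1% wakame (adjusted p = 0.952), and neither passed. For 1% wakame minus control it was −0.48 ± 0.47. Without rat 1 on 1% wakame it was −0.93, without rat 3 or rat 4 of that diet −0.28, and without control rat 2 −0.32. The promoter windows of Foxa2 (chr3:155927509-155927758, minus strand) and Cebpa (chr1:96896334-96896583, plus strand) are shown because these genes varied widely within diets, with SDs within diets of 0.72 on 1368711_at for Foxa2 and of 0.47 to 0.98 over the probe sets of Cebpa, beside 0.49 for Cebpb. Searched letters are again in capitals:
Foxa2: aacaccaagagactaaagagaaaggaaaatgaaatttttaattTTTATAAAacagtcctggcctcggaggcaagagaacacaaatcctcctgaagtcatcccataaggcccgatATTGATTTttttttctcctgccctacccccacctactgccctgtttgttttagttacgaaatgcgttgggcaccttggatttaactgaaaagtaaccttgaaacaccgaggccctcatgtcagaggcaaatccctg
Cebpa: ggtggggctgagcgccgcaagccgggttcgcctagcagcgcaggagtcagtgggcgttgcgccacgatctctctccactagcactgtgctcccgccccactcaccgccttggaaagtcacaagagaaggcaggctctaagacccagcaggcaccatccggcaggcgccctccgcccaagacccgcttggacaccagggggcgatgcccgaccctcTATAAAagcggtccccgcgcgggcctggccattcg
The HNF6 letters ATTGATTT lie in the Foxa2 window at 136 to 129 bases before the start and occur in 1.01% of all windows. HNF6, the product of Onecut1, is known to bind the Foxa2 promoter in rodents.

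For each of Hnf4a and Nr1h4 the diet means lay within 0.23 log2 of each other. Hnf4a on 1392969_at had a log2 signal of 11.30, 11.55, 11.33 and 11.46 in control, 11.48, 11.76, 11.57 and 11.73 on 0.1% wakame, and 11.30, 11.61, 11.55 and 11.49 on 1% wakame. Its whole range was 0.47 log2, or 1.38-fold, and the diets overlapped, although rats 2, 3 and 4 on 0.1% wakame lay above all controls. It was at 0.23 ± 0.09 for 0.1% wakame minus control (limma unadjusted p = 0.031, adjusted p = 0.379), at −0.15 ± 0.09 for 1% minus 0.1% wakame (adjusted p = 0.824) and at 0.08 ± 0.09 for 1% wakame minus control. Nr1h4, the gene of the bile acid receptor FXR, had a log2 signal on 1369073_at of 9.84, 9.75, 9.94 and 10.03 in control, values from 9.53 to 10.08 on 0.1% wakame, and 9.59, 9.73, 10.35 and 9.99 on 1% wakame. The wakame diets spread to both sides of the controls. The difference was at 0.03 ± 0.17 for 1% wakame minus control, with a 95% interval from −0.35 to 0.41, and at −0.07 ± 0.17 for 0.1% wakame minus control (limma adjusted p = 0.920).

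**Figure D4:**
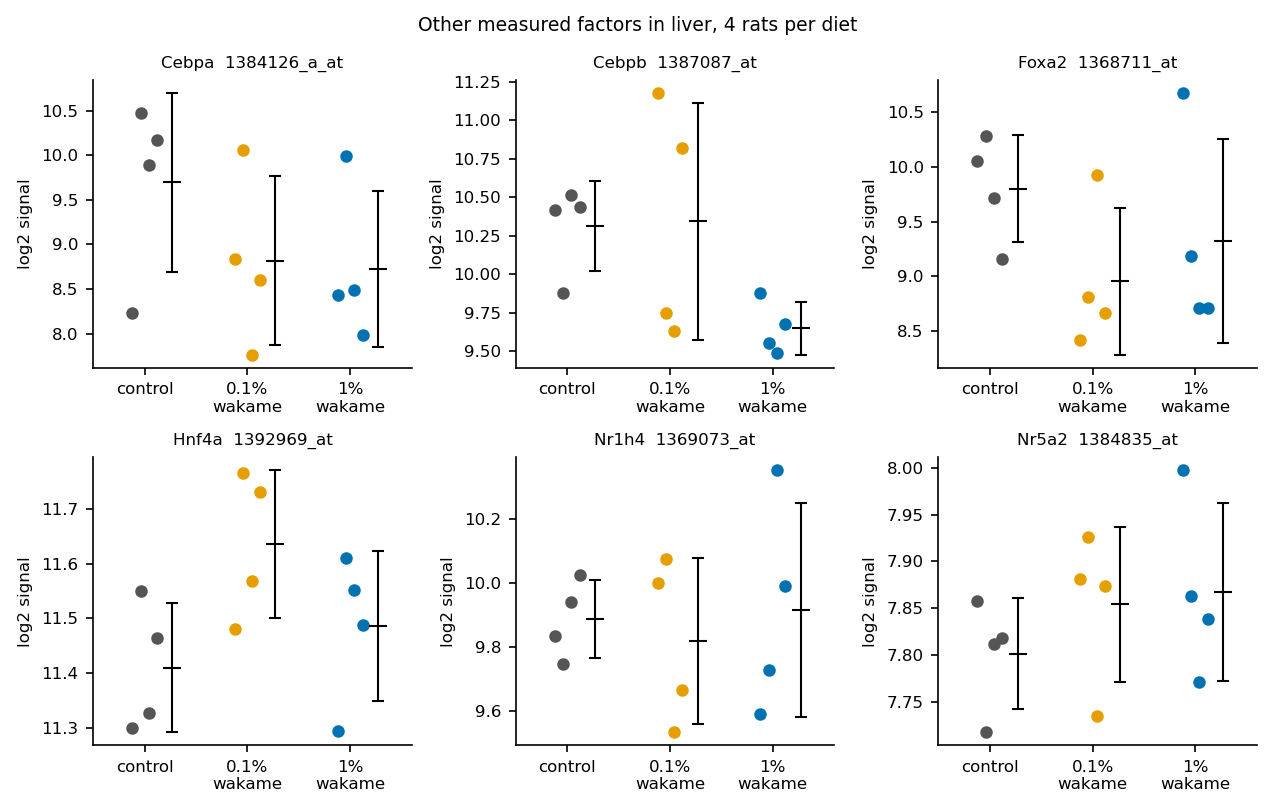
Log2 signal (vertical axes, which do not start at 0) by diet of Cebpa probe set 1384126_a_at, Cebpb, Foxa2, Hnf4a, Nr1h4 and Nr5a2 probe set 1384835_at; each point is 1 rat, and the bar is the mean ± SD of 4 rats. The diets overlap in every panel, and Cebpb is at 9.49 to 9.88 on 1% wakame beside 9.88 to 10.51 in control.

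Of the 8 varying probe sets of Foxa2, Hnf4a, Cebpa, Cebpb and Nr1h4, 0 passed between 0.1% wakame and control (limma, adjusted p of 0.379 or above), and that of Hnf4a alone, 1 of 8, was under 0.05 unadjusted, beside 11.5% of all varying ones. None of the 13 member probe sets was free of overlap between these diets, beside 5.86% of all varying ones. Between 1% and 0.1% wakame, 0 passed (adjusted p of 0.747 or above) and 0 were under 0.05 unadjusted. Free of overlap there were 3 of the 13, those of Foxp1 on 1379651_at and 1390885_at and of Nr5a2 on 1390965_at, beside 3.77% of all varying ones. Among all 3240 varying probe sets 0.0617% were called between 0.1% wakame and control, all lower, and 0 of 3240 (0%) between 1% and 0.1% wakame, where 219 were under 0.05 unadjusted. These comparisons share arrays with each other and with that of 1% wakame and control.

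**Figure D5:**
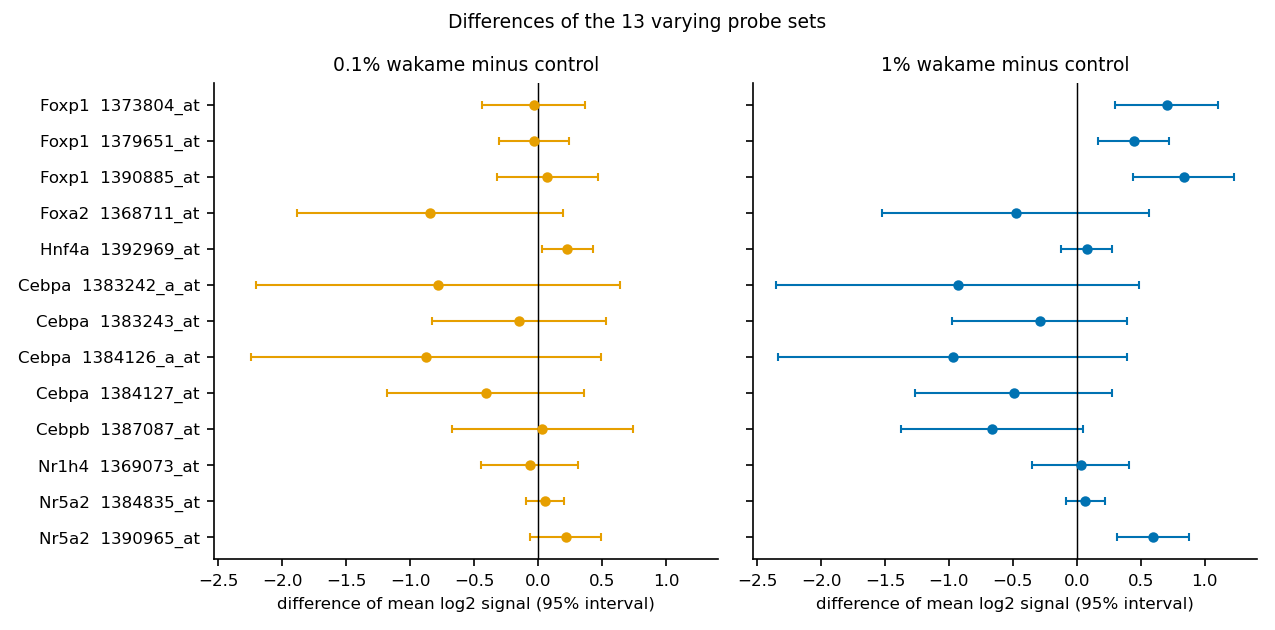
Difference of mean log2 signal (horizontal axes) with its 95% interval from the limma fit for the 13 varying probe sets, for 0.1% wakame minus control and for 1% wakame minus control. On 1% wakame the 3 Foxp1 probe sets lie at 0.44 to 0.83 and Nr5a2 probe set 1390965_at at 0.60, and the intervals of Cebpa, the widest drawn, reach from −2.35 to 0.49. The intervals show precision and are no test of genes chosen for this comparison.

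Among other transcription factors of liver, a list of 45 genes had 41 on the array and 24 that vary, on 30 probe sets. Between 1% wakame and control 2 of these probe sets rose, those of Bcl6 and Nr1d1, and 2 fell, both of Onecut1, beside 1.67% called among all varying probe sets. Bcl6, a repressor that growth hormone lowers, was at 5.21 ± 0.77 log2 (limma adjusted p = 0.0152), the clock repressor Nr1d1 at 1.98 ± 0.33 (adjusted p = 0.0262) and Onecut1, the gene of HNF6, at −3.17 ± 0.54 and −2.10 ± 0.35 (adjusted p = 0.0268 and 0.0262). Of 12 fits with an array left out, Bcl6 kept its call in 10, losing it without control rat 4 or rat 2 on 1% wakame. Nr1d1 and both probe sets of Onecut1 kept theirs in 7, losing it without control rat 1, 2 or 4 and without rat 2 or 4 on 1% wakame. With all probe sets in the fit, and with the Gapdh covariate, the 4 calls were lost. The list's median was 0.09, beside −0.02 over all varying probe sets. These results were known when the list was written.

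Next in order of unadjusted p came Nr1d2, the other REV-ERB gene, at 1.01 ± 0.25 log2 (limma adjusted p = 0.0754), its competitor receptor Rora at −0.37 ± 0.09 (0.0812), Klf15, a factor of fasting and amino acid metabolism, at 1.05 ± 0.28 (0.0878) and Tef at 0.63 ± 0.18 (0.113), and none of the 4 passed. For 0.1% wakame minus control, 0 of the 30 probe sets passed and 12 were under 0.05 unadjusted, and for 1% minus 0.1% wakame 0 passed and 6 were. For 1% wakame minus control it was 19 of the 30. Over all varying probe sets these shares were 11.5% for 0.1% wakame minus control, 6.76% for 1% minus 0.1% wakame and 18.5% for 1% wakame minus control. Klf15 was at 1.22 ± 0.28 for 0.1% wakame minus control (adjusted p = 0.190). Of 18 other forkhead genes 14 were on the array and 1 varied, Foxo3, at 0.10 ± 0.10 for 1% wakame minus control (adjusted p = 0.654).

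Target genes of these factors gave no call in limma between 1% wakame and control, where 18.5% of all varying probe sets were under 0.05 unadjusted. Of 25 secreted and metabolic hepatocyte genes that depend on HNF4A, C/EBPalpha or FOXA, 13 varied on 15 probe sets, of which 9 lay higher and 6 lower with a median of 0.02 log2 and 1 had an unadjusted p under 0.05. Tdo2, of tryptophan breakdown, was at 0.49 ± 0.19 (limma adjusted p = 0.209) and Tat, of tyrosine breakdown, at −1.04 ± 0.48 (0.280). Of 16 targets of FXR or LRH-1, 10 varied and 7 of these lay higher with a median of 0.19, and 4 had an unadjusted p under 0.05. The phospholipid exporter Abcb4 was at 0.96 ± 0.21 (0.0579) and the bile salt export pump Abcb11 at 0.22 ± 0.08 (0.174). For 0.1% wakame minus control, 9 of these 10 lay higher with a median of 0.12. There Abcb4 was at 0.81 ± 0.21 (limma adjusted p = 0.196) and Abcb11 at 0.13 ± 0.08 (0.580). For 1% wakame minus control, Abcb4 passed when rat 4 on 1% wakame was left out (limma adjusted p = 0.0416). That was the sole pass among 12 such runs, and 0 of 9 other settings called Abcb4. Across these runs and settings its limma adjusted p reached 0.305.

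FOXP1 is described to restrain gluconeogenic FoxO1 targets in mouse liver. Of a wider list of 10 FoxO target genes, 4 varied and 3 of these lay higher with a median of 0.42, and 1 had an unadjusted p under 0.05 in limma. Pck1, the key enzyme of gluconeogenesis, was at 0.57 ± 0.22 for 1% wakame minus control (limma adjusted p = 0.202) and at 0.73 ± 0.22 for 0.1% wakame minus control (0.223), and its coactivator gene Ppargc1a at 0.26 ± 0.13 and 0.24 ± 0.13 (0.291 and 0.533), none passing. Of 21 corepressors and coactivators 4 varied, 1 with an unadjusted p under 0.05, with a median of −0.14. The nuclear receptor corepressor Ncor1 was at −0.45 ± 0.14 (0.130) and Tbl1x, of the same complex, at −0.28 ± 0.28 (0.640), neither passing.

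Arrays of 1 diet correlated at 0.911 to 0.961 over the varying probe sets, and no arrays held identical values. RNA integrity was gauged by Gapdh, whose 3-prime minus 5-prime control signal was 1.05 ± 0.01 log2 in control, 1.08 ± 0.10 on 0.1% wakame and 1.21 ± 0.16 on 1% wakame (SD, n = 4). Its mean was thus widest on the diet where Foxp1 and Nr5a2 lay higher, but the diets overlapped, at 1.04 to 1.07 in control and 1.04 to 1.42 on 1% wakame. With the Gapdh measure as a covariate both calls among the members were lost, as given above, and the second Nr5a2 probe set, 1384835_at, was at 0.023 log2 for 1% wakame minus control. The same measure for beta-actin was 2.31 ± 0.13 log2 in control, 2.25 ± 0.15 on 0.1% and 2.38 ± 0.07 on 1% wakame (SD, n = 4), with overlapping diets. It was not used as a covariate, and the part of RNA integrity in these differences was not tested further. Of the hepatocyte markers 4 of 8 on the array varied, Apoa1, Cps1, Cyp2e1 and Tat, while Alb, Ttr, Serpina1 and Ahsg were flat. Between 1% wakame and control limma called 0 of their 5 varying probe sets, and 0 were under 0.05 unadjusted. FOXP1 is also made by lymphocytes, macrophages and endothelial cells. Of the markers of T and NK cells 0 of 8 on the array varied, and of B cells 1 of 3, Cd74, which lay at 0.16 log2. Kupffer cell and macrophage markers varied in 6 of 9, 0 under 0.05 unadjusted, with a median of 0.06, and their summed linear signal ran from 2633 to 5111 on 1% wakame, beside 2900 to 4519 in control. Endothelial markers varied in 2 of 7, 0 under 0.05 unadjusted, with a median of 0.05 and sums of 1967 to 2166 on 1% wakame, beside 1706 to 2320 in control. Stellate cell markers varied in 5 of 10, all 5 higher on 1% wakame with 1 under 0.05 unadjusted and 0 passing in limma, with a median of 0.21 and sums of 2593 to 3419 on 1% wakame, beside 2370 to 3129 in control. Cholangiocyte markers varied in 0 of 5. The sums overlapped between these diets for each list, and the part of other cell types in the results was not tested.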

How the data were processed

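Liver RNA of 12 rats was measured on an Affymetrix rat array. Per the labels' protocols, 100 ng of total RNA was made into biotinylated cRNA with a 3-prime kit. The authors deposited 1 table of log2 values, a scale inferred from values of 3.15 to 14.6; the only tool in the submitters' processing notes is R 2.7.2. How background, normalization and probe summary were handled is not given in the sources used here. Among 31042 probe sets, 27802 (89.6%) had an SD of at most 0.01 over the arrays; how these flat values arose is unknown, so they show nothing about RNA levels.

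Symbols came from the platform annotation. limma 3.58.1 in R 4.3.3 fitted a mean per diet to all 12 arrays on the 3240 varying probe sets, with a trend in the variance prior and Benjamini-Hochberg adjustment over all of them. Rose and fell mean an adjusted p under 0.05. The code was tested on simulated data. The members and lists were chosen with earlier results of these data known. The genes named are the members, called genes of each list plus those with the smallest unadjusted p (4 for transcription factors, 2 for other lists), and the 6 most and 3 least like Foxp1. Alternatives tried were other SD limits, all probe sets, no trend, dim probe sets left out, 1 probe set per gene, centring, a replicate block, the Gapdh covariate and each array left out. Promoter sequences are RefSeq's. The number of arrays limits the precision. Each array was of a separate animal.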

Additional observations from a re-analysis of the deposited data

Results flagged for a closer look

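On Cebpb probe set 1387087_at, control rat 2 stood apart from its diet, at 9.88 log2 where the other 3 controls lay from 10.42 to 10.51. Its gap to the nearest control was 0.85 of the whole range of the diet, above Dixon's 95% critical value for 4 samples. This was 1 of 39 groups examined, and chance flags about 1 in 20.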

How the results depend on the processing

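The count of member probe sets called between 1% wakame and control, 2 of 13, was 1 with an SD limit of 0.1 and 0 with all probe sets, with 1 probe set per gene, with the replicate block and with the Gapdh covariate, and ran from 0 to 2 with each array left out. Over all probe sets the count of 54 was 9 with flat probe sets included, 10 with 1 probe set per gene, 12 with the replicate block and 4 with the Gapdh covariate, and ran from 7 to 49 with an array left out. Between 0.1% wakame and control the count of 2 was 5 with flat probe sets, 0 with 1 probe set per gene or the replicate block and 1 with centred arrays, and ran from 0 to 8. Between 1% and 0.1% wakame the count of 0 was 6 with flat probe sets and ran from 0 to 1. The causes were not tested. Over all varying probe sets, same-numbered rats did not deviate together (r from −0.12 to 0.09 over 12 pairs, 0 of them over 0.1). Such an r cannot show whether the numbers pair the arrays for some of the genes. Rat 2 was the highest of every diet for Hnf4a and for Cebpa on 1384126_a_at. With the replicate block, the SE for 1% wakame minus control was 0.053 for Hnf4a, beside 0.091 without it. It was 0.44 beside 0.62 for Cebpa on 1384126_a_at. For Nr1h4 the SE was larger, at 0.20 beside 0.17, as for Nr5a2 on 1390965_at, at 0.14 beside 0.13. Whether the numbers pair the arrays was not tested. With the replicate block Nr1d1 (adjusted p = 0.0691 in limma) and both probe sets of Onecut1 (0.0667 and 0.0611) lost their calls and Bcl6 kept its call (0.0445).

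The signs of the Foxp1 probe sets, Nr5a2 probe set 1390965_at and Cebpa for 1% wakame minus control held under each alternative run. Signs that turned were of differences that did not pass. For 0.1% wakame minus control, Cebpb (0.03) was −0.019 with the Gapdh covariate, −0.14 as a difference of medians and −0.25 to 0.27 with an array left out, Cebpa 1383243_at ran from −0.39 to 0.092, Nr1h4 from −0.15 to 0.027 and Foxp1 from −0.18 to 0.066 on 1373804_at, −0.097 to 0.058 on 1379651_at (0.039 as medians) and −0.045 to 0.21 on 1390885_at. For 1% wakame minus control Nr1h4 (0.03) ran from −0.12 to 0.14 and was −0.029 as medians. For 1% minus 0.1% wakame, the ranges with an array left out were −0.083 to 0.69 for Foxa2, −0.58 to 0.28, −0.38 to 0.10, −0.51 to 0.32 and −0.33 to 0.18 for Cebpa 1383242_a_at, 1383243_at, 1384126_a_at and 1384127_at, −0.049 to 0.21 for Nr1h4 and −0.030 to 0.045 for Nr5a2 1384835_at, which was −0.022 with the Gapdh covariate and −0.027 as medians. No signal over background was available, so what dimness does to a difference was not tested.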

Other observations

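The genes most like 4 further members over the 12 rats were looked for after the values had been seen, with the same search as for Foxp1, and are given as a description with no test. Foxa2 ran most closely with Cish, a target of the growth hormone signal through STAT5 (r = 0.92, and 0.90 with diet means removed), with Frat2, which favours Wnt signalling (0.92, and 0.96), and with Dusp6, a phosphatase that turns off ERK (0.83, and 0.83), and it ran opposite to Qdpr (−0.81), Kmo (−0.79) and Mllt3 (−0.79). Nr5a2 on 1390965_at ran most closely with Mtss1 (0.92), Shld2 (0.89) and Osbpl9 (0.89) and opposite to Rbpj, the DNA-binding factor of Notch signalling (−0.91), Prkab1, a subunit of AMP-activated kinase (−0.90), and Rnf217 (−0.90). With diet means removed these were 0.79, 0.67 and 0.70, and −0.77, −0.78 and −0.73. Cebpa on 1384126_a_at ran most closely with Ltbp4 (0.85) and opposite to Sfr1 (−0.83), and Cebpb with Clca2 (0.82) and opposite to Ccdc125 (−0.79). As a rank correlation, Spearman's rho was 0.80 for Ltbp4, −0.76 for Sfr1, 0.48 for Clca2 and −0.71 for Ccdc125, so the likeness to Clca2 was weaker by rank. With Foxa2, rho was 0.73 for Cish, below 0.94 for Frat2 and 0.87 for Dusp6. Among the members, Foxp1 and Nr5a2 ran together (0.84, and 0.52 with diet means removed), while Nr5a2 and Cebpa (−0.62, and −0.61), Foxa2 and Nr1h4 (−0.60, and −0.77), and Nr5a2 and Nr1h4 (−0.31, and −0.70) ran opposite. These pairs were picked by no fixed rule from all pairs of varying members. Other pairs were Foxa2 and Hnf4a (−0.57, and −0.40) and Foxp1 and Nr1h4 (−0.20, and −0.59). Nr5a2 and Foxa2 (0.14, and 0.67) and Cebpa and Hnf4a (0.21, and 0.62) ran together mainly with diet means removed. These values share arrays, and Foxp1 and Nr5a2 share the diet difference for which they are described.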
